A study of Homo sapiens with 6 samples.

Results

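The annexins are a family of proteins that bind the inner face of cell membranes when calcium rises. The 9 annexin genes described here, ANXA1, ANXA2, ANXA3, ANXA4, ANXA5, ANXA6, ANXA7, ANXA9 and ANXA11, were chosen by symbol from the 30960 genes of the deposited expression table, with their values in the same 6 libraries already known. Their differences between the groups are therefore given as descriptions with no p-value, and the counts of calls over all genes that include them are given with nothing read from them. RNA came from HEK293 cells, a line derived from human embryonic kidney, that carried a plasmid for a green fluorescent protein (GFP) fusion with PKI1-24 (PKI libraries A, B and C) or with inPKI1-24 as control (inPKI libraries A, B and C). Both groups received 158 ng of plasmid per square centimetre and RNA was taken at 48 h. All 6 libraries thus carry a GFP fusion, the labels describe no untransfected cells, and the fraction of cells that took up plasmid is not given. The protocol speaks of transfection where the design text speaks of transduction. The labels call the cells triplicates without saying that they were grown apart, so p-values measure the spread between these libraries, which may be technical.

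PKI is a small natural inhibitor of protein kinase A (PKA), the kinase that cyclic AMP switches on. Each annexin has a variable N-terminal tail and a conserved core of repeats, and the core holds calcium between the protein and acidic phospholipids such as phosphatidylserine. Annexins are known for organising membranes, for sealing wounds in the plasma membrane and for steps of vesicle traffic, and several carry EF-hand proteins of the S100 kind on their tails.

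The recovered reads numbered 17244715 to 23589438 per library, with PKI C the lowest. PKIA, the gene of the alpha form of PKI, was read as a check of the labels. It was at 43.2, 42.3 and 46.1 CPM (read counts scaled to library size and by TMM, a further factor per library) in PKI libraries. In inPKI libraries it was at 9.05, 11.3 and 8.65 CPM (log2 change 2.08 ± 0.088 SE, limma adjusted p = 5.64e-09). The plasmids carry a PKI sequence, and reads from them cannot be told apart here from RNA of the gene itself. All 8 HEK293 markers on the list passed the filter, with summed levels of 798 to 910 CPM in PKI libraries and 898 to 920 CPM in inPKI libraries. The leukocyte marker CD3E and the fibroblast marker DCN were at 0 in all 6 libraries. Of 4 keratinocyte markers, KRT5 had 12.2, 11.5 and 9.84 CPM in PKI libraries and 13.2, 10.2 and 26.5 CPM in inPKI libraries, and KRT14 had 5.13, 5.29 and 5.03 CPM in PKI libraries and 4.95, 4.60 and 12.2 CPM in inPKI libraries, so inPKI C stood above the rest in both. The other keratinocyte markers, KRT10 and KRT1, did not share this. KRT10 was highest in inPKI B, with 12.7 CPM in inPKI C and 12.9 CPM in inPKI A. KRT1 was highest in PKI B at 0.433 CPM, with 0.414 CPM in inPKI C. The summed level of the 4 was 25.6 to 29.8 CPM in PKI libraries and 27.9 to 51.8 CPM in inPKI libraries. Over all 14275 genes tested (CPM of at least 1 in at least 3 libraries), limma on log2(CPM + 1) called 0.126% at an adjusted p below 0.05.

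HEK293 cells held RNA of every one of the 9 annexins, over a wide span of levels. Divided by the length of the longest principal transcript, ANXA5 led with 118 CPM per kb (range over the 6 libraries 106 to 122), at percentile 96.9 of the tested genes. ANXA6 with 52.0 and ANXA2 with 50.4 CPM per kb came next, and their ranges over the libraries overlapped, so these neighbours do not differ beyond their spread. ANXA7 followed with 26.0 CPM per kb and ANXA11 with 14.5 CPM per kb. ANXA4 had 4.49, ANXA1 2.95, ANXA3 0.995 and ANXA9 0.472 CPM per kb. The ranges of ANXA3 and ANXA9 also overlapped, while the remaining neighbours in this order did not. The order depends on the transcript chosen for ANXA2, ANXA11 and ANXA1. With the shortest principal transcript, ANXA2 stood at 58.9 CPM per kb (50.2 to 64.3), above ANXA6 but with ranges that overlap. ANXA11 then stood at 39.7 CPM per kb (34.2 to 41.7), above ANXA7, and ANXA1 stood at 4.32 CPM per kb (3.68 to 4.80), still below ANXA4 but now overlapping its range of 4.05 to 4.81 CPM per kb.

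The genes are spread over the genome (GRCh38, GENCODE 29, start to end). ANXA5 lies on chromosome 4 from 121667955 to 121697113, on the chromosome that also holds ANXA3, and ANXA6 on chromosome 5 from 151100712 to 151157882. ANXA7, from 73375101 to 73414076, and ANXA11, from 80150889 to 80205572, are both on chromosome 10. ANXA2 lies on chromosome 15 from 60347134 to 60402883, ANXA1 on chromosome 9 from 73151757 to 73170393, ANXA4 on chromosome 2 from 69644425 to 69827100 and ANXA9 on chromosome 1 from 150982017 to 150995634. All are protein-coding, and ANXA6 has 26 exons in its principal transcript, against 12 to 17 in the others.

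**Figure D1:**
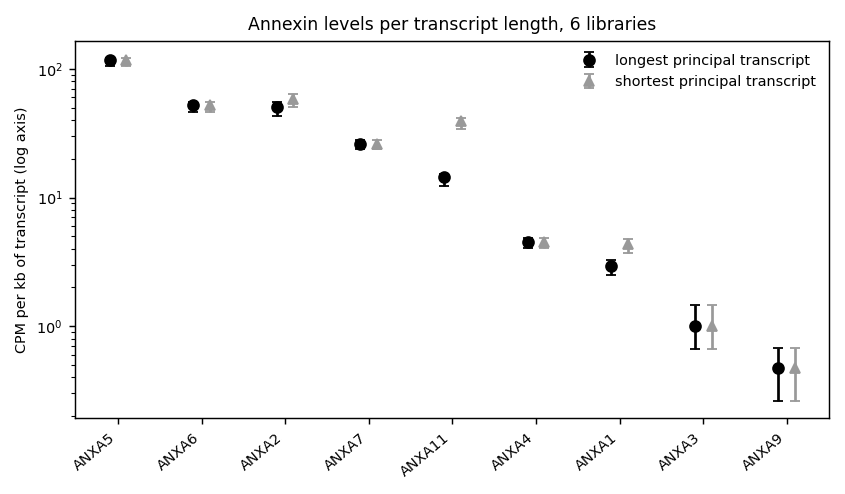
Level of each annexin as CPM per kb of transcript on a log axis. Points are means over all 6 libraries and bars run from the lowest to the highest library, once for the longest principal transcript and once for the shortest. ANXA5 lies highest at 118 CPM per kb and ANXA9 lowest at 0.472 CPM per kb, and ANXA11 moves most with the choice of transcript.

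ANXA3 was the annexin with the largest difference between the groups, and the single one of the 9 whose groups did not overlap. Its product is found at the granules of neutrophils. It had 1.85, 2.40 and 2.23 CPM in PKI libraries, against 1.09, 1.17 and 1.16 CPM in inPKI libraries. Every PKI library thus lay above every inPKI library. The means were 2.16 ± 0.28 CPM in PKI libraries and 1.14 ± 0.041 CPM in inPKI libraries (SD, n = 3 each), a ratio of 1.89, and the log2 change of CPM + 1 was 0.56 ± 0.14 (SE). Adding 1 to a level this low understates a change. The values rest on few reads, 50, 72 and 51 in PKI libraries and 28, 32 and 28 in inPKI libraries, or 173 reads in PKI and 88 in inPKI. The exact 95% Poisson intervals, which cover counting error only, ran from 1.37 to 2.43 CPM for PKI A, 1.87 to 3.02 CPM for PKI B and 1.66 to 2.93 CPM for PKI C, against 0.726 to 1.58 CPM, 0.798 to 1.65 CPM and 0.77 to 1.67 CPM for inPKI A, B and C. The interval of PKI A meets those of all 3 inPKI libraries, that of PKI C meets that of inPKI C alone, and that of PKI B lies above all 3.

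By limma none of the 8 annexins tested passed, and edgeR and DESeq2 on the recovered reads also called 0 of the 8, where DESeq2 gave no adjusted p for 3 of them, ANXA3 included. Over all tested genes edgeR called 0.0771% and DESeq2 1.77%. At an unadjusted p below 0.05, 1 annexin (ANXA3) was counted, beside 13.7% of all tested genes. Groups that did not overlap were found in 1 of the 9 annexins, beside 19.7% of all tested genes. Nothing is read from these counts, because the annexins were taken with this contrast in view. The log2 change of ANXA3 was above 0 in 17 of 17 other settings, from 0.22 with a pseudocount of 5 to 0.93 with DESeq2. Leaving out any 1 library gave 0.50 to 0.63, a direction that groups without overlap fix. The other settings reuse the same 6 libraries, so their shared direction adds no support either. The authors' deposited table gives ANXA3 a log2 change of 0.93 ± 0.208, written here as PKI over inPKI.

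**Figure D2:**
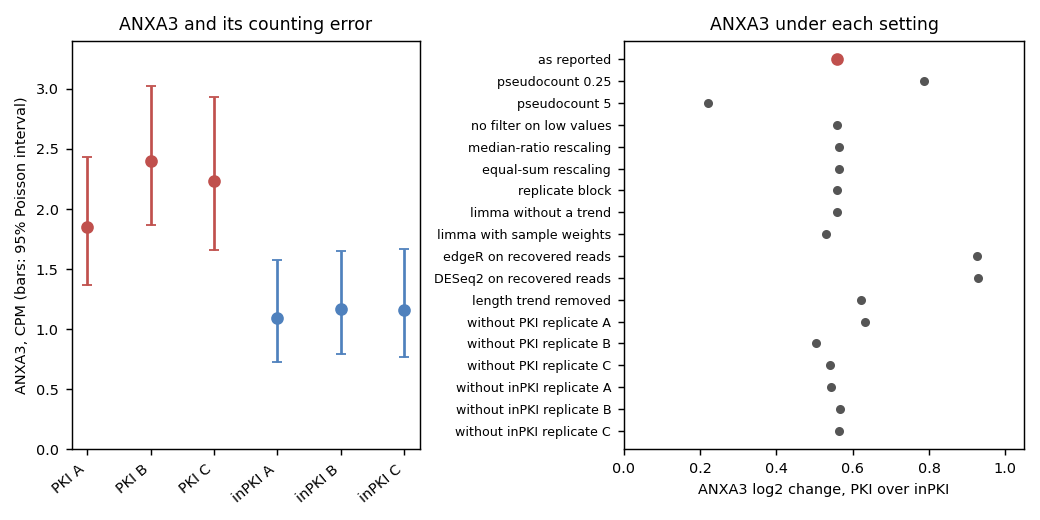
Left, ANXA3 in CPM in each library, PKI before inPKI, with 95% Poisson intervals as bars. Right, the log2 change of ANXA3 (PKI over inPKI) as reported (red, 0.56) and under each other setting (grey). The PKI libraries lie at 1.85 to 2.40 CPM and the inPKI libraries at 1.09 to 1.17 CPM. Every setting reuses these libraries and gives a value above 0, from 0.22 to 0.93.

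ANXA3 lies on chromosome 4 from 78551519 to 78610451 on the plus strand (GRCh38, GENCODE 29), and its principal transcript has 13 exons and 1657 bases. Among its neighbours on that chromosome, FRAS1, an extracellular matrix gene that ends 7250 bp before ANXA3, averaged 37.0 ± 5.05 CPM in PKI libraries and 30.3 ± 1.74 CPM in inPKI libraries (SD, n = 3 each), a log2 change of 0.27 ± 0.083 that did not pass (limma adjusted p = 0.197). BMP2K, a kinase gene 165891 bp after it, averaged 23.2 ± 1.91 CPM in PKI libraries and 20.6 ± 0.886 CPM in inPKI libraries, and it did not pass either (limma adjusted p = 0.366).

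The abundant annexins differed little. ANXA5, the phosphatidylserine binder whose labelled protein is the common stain for dying cells, had 205, 216 and 187 CPM in PKI libraries, against 213, 216 and 211 CPM in inPKI libraries. The groups overlapped and PKI C was lowest, with a log2 change of -0.076 ± 0.059 (SE). ANXA6, whose core is doubled within 1 protein and which acts at endosomes and the plasma membrane, had 134, 144 and 121 CPM in PKI libraries, against 138, 141 and 132 CPM in inPKI libraries. Its log2 change was -0.045 ± 0.063, again with PKI C lowest and overlapping groups. ANXA5 alone made up 33.8 ± 0.502% of the summed CPM of the 9 annexins in PKI libraries and 34.0 ± 0.124% in inPKI libraries (SD, n = 3 each), whereas ANXA3 made up 0.361 ± 0.0555% in PKI libraries and 0.182 ± 0.0063% in inPKI libraries.

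ANXA2 forms a complex with S100A10 that bridges membranes and binds plasminogen at the cell surface. It had 88.5, 85.6 and 72.1 CPM in PKI libraries, against 84.5, 84.3 and 92.3 CPM in inPKI libraries. The lowest library was PKI C and the highest inPKI C, and the groups overlapped, with means of 82.1 ± 8.76 CPM in PKI libraries and 87.0 ± 4.58 CPM in inPKI libraries (SD, n = 3 each) and a log2 change of -0.088 ± 0.072. ANXA1, regulated by glucocorticoids and known as a ligand of formyl peptide receptors, had 6.80, 6.19 and 5.56 CPM in PKI libraries, against 6.28, 7.08 and 7.24 CPM in inPKI libraries. Its groups overlapped as well, and its log2 change of -0.13 ± 0.10 was the lowest of the 8 tested. ANXA1, ANXA2 and ANXA9 were each highest in inPKI C, the library with high KRT5 and KRT14. Without inPKI C the log2 change was -0.098 for ANXA1 and -0.046 for ANXA2, and the part of those keratins in these values was not tested.

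ANXA7, also called synexin and able to fuse membranes in vitro, had 62.9, 65.3 and 58.2 CPM in PKI libraries, against 64.3, 68.5 and 63.9 CPM in inPKI libraries (log2 change -0.077 ± 0.058). ANXA11, which has a long disordered tail and links RNA granules to lysosomes, had 104, 105 and 86.7 CPM in PKI libraries, against 104, 106 and 98.7 CPM in inPKI libraries (log2 change -0.064 ± 0.069). In both genes the groups overlapped and PKI C was lowest. ANXA4, found at epithelial membranes, had 11.6, 13 and 12.9 CPM in PKI libraries, against 13.5, 13.2 and 11.3 CPM in inPKI libraries, with overlapping groups and a log2 change of -0.016 ± 0.088.

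ANXA9, an unusual member whose calcium-binding sites are degenerate, was too low for the filter. It had 0.702, 1.23 and 0.481 CPM in PKI libraries, against 0.819, 0.693 and 1.24 CPM in inPKI libraries. These rest on 19, 37 and 11 reads in PKI libraries and 21, 19 and 30 reads in inPKI libraries, and the groups overlapped. The 95% Poisson intervals of 0.867 to 1.70 CPM for PKI B and 0.24 to 0.861 CPM for PKI C do not meet, although both are PKI libraries. No difference between the groups was detectable at this depth.

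**Figure D3:**
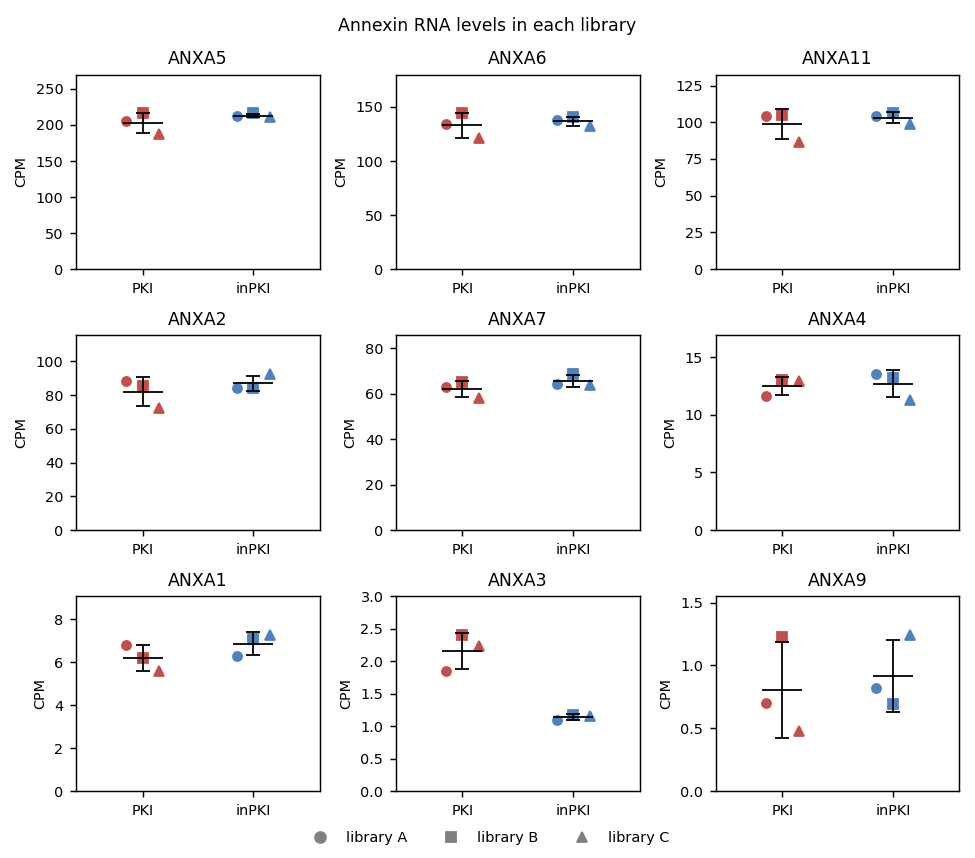
CPM of the 9 annexins in each library, with PKI (red) left of inPKI (blue); circles, squares and triangles are libraries A, B and C, and bars are mean and SD (n = 3). ANXA3 is the panel in which the groups separate, at 1.85 to 2.40 CPM in PKI libraries and 1.09 to 1.17 CPM in inPKI libraries, and the PKI C triangle is lowest in 7 of the 9 panels.

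The group mean was lower in PKI libraries for all 8 annexins other than ANXA3. Of the 8 annexins tested, 7 had a log2 change below 0, with a median of -0.070, and the median was -0.0755 without ANXA3. Over all tested genes 52.6% lay below 0, with a median of -0.0074. The median level of the whole family in each library, untested member included, had a pooled SD within groups of 0.0793. This SD is a spread of individual libraries and not the SE of a difference between groups. The median change is therefore not judged against it.

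PKI C was the lowest library for 7 of the 9 annexins, all but ANXA3 and ANXA4. The summed CPM of the 9 was 615, 638 and 546 in PKI libraries, against 625, 637 and 619 in inPKI libraries, or 600 ± 47.9 in PKI libraries and 627 ± 8.85 in inPKI libraries (SD, n = 3 each). With each gene centred on its own mean, the median of the 9 in PKI C was -0.16 on the log2 scale, beside -0.046 for all tested genes in that library. Without PKI C the median change of the tested annexins was -0.0097, and ANXA2, ANXA6 and ANXA11 stood at 0.0012, 0.022 and 0.025, above 0. ANXA3 was at 0.54. PKI C also has the fewest reads and the lowest CPM sum, 754299, and the part of either was not tested.

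**Figure D4:**
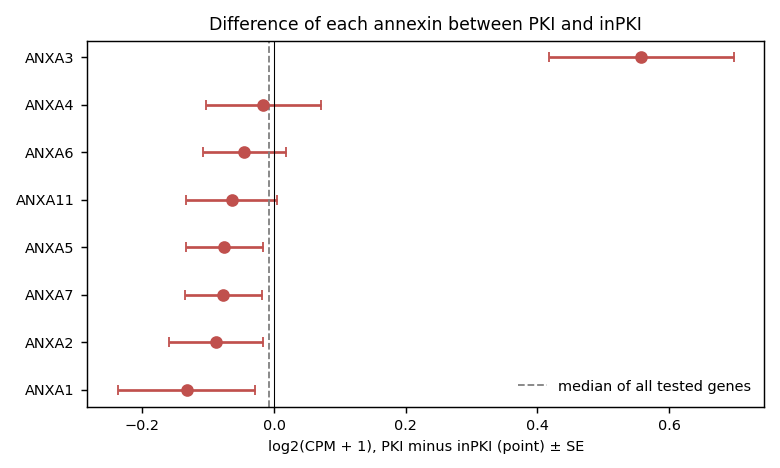
Difference of log2(CPM + 1), PKI minus inPKI, for the 8 tested annexins, with the SE as bars and the median of all tested genes as a dashed line. ANXA3 lies at 0.56, and the other annexins lie between -0.13 and -0.016.

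Patterns over the 6 libraries were compared between genes as the root mean square difference of centred log2(CPM + 1), among 11061 genes of at least 5 CPM. The annexins taken were those with the highest CPM, not divided by length. For ANXA5 the most alike were CAMK1, CENPV and GLOD4, with 0.0062 to 0.0079, against a median of 0.0829 over all candidates. For ANXA6 they were ARPC1A, WASHC5 and OSBPL1A, with 0.0081 to 0.0107. For ANXA11 they were ZNF777, FLOT2 and TBC1D14, with 0.0126 to 0.0157. These likenesses come from 6 libraries that share depth differences and carry no test.

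Of the other annexin genes, the pseudogene ANXA2P2 alone passed the filter. ANXA8 had 0.406, 0.399 and 0.0875 CPM in PKI libraries, against 0.117, 0.328 and 0.869 CPM in inPKI libraries. Its near-identical copy ANXA8L1 had 0.111, 0.0333 and 0.262 CPM in PKI libraries, against 0.234, 0.219 and 0.579 CPM in inPKI libraries, and reads of the pair cannot be assigned with certainty. Both were highest in inPKI C. ANXA10 was at 0 in all 6 libraries, where 3 reads would give 0.0998 to 0.131 CPM. ANXA2P2, whose reads can be shared with ANXA2, had 1.96, 1.56 and 1.57 CPM in PKI libraries, against 1.72, 1.71 and 1.49 CPM in inPKI libraries (log2 change 0.030 ± 0.139), and ANXA2P1 and ANXA2P3 did not exceed 0.148 CPM. ANXA13 and ANXA8L2 were not analysed here.

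Promoters were read from RefSeq windows of 250 bases before to 50 after each start (GRCh38.p14), of which 13 matched the 9 annexins by symbol. Their GC content ran from 37.7% to 78.0%, against a median of 58.7% over all 35116 windows. The full cAMP response element TGACGTCA, the site of the PKA-regulated factor CREB, was in 0 annexin windows and in 1.85% of all windows. Its shorter core TGACG was in windows of ANXA7 and ANXA11, and in 24.6% of all windows. The AP-1 letters TGANTCA stood in the ANXA2 window alone among the annexins, and in 7.71% of all. The EGR1 letters GCGNGGGCG were in 0 annexin windows and 9.43% of all, and the GC box GGGCGG was in windows of 6 annexins and 45.0% of all. The TATA letters TATAAA were in windows of ANXA1, ANXA2 and ANXA11, and in 11.5% of all. Both strands were searched, the full element contains the core, and a match is a description of letters only. ANXA4, ANXA6 and ANXA11 have several windows and were counted when any of them matched. The shares over all are of single windows, so counts of annexins and these shares are not like for like.

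The ANXA2 and ANXA1 stretches are shown because ANXA2 is the annexin with the AP-1 letters and the ANXA1 window is the lowest of the family in GC content, 37.7% against 76.0% in the ANXA2 window. Each is the leading part of its window, up to the first GENCODE exon of an annexin met there, 5′ to 3′ on the gene's strand. The ANXA2 stretch lies within the annotated gene, which on the minus strand begins at 60402883. Capitals mark the AP-1 letters and the overlapping GC boxes. The ANXA2 stretch is chr15:60398044-60398236 on the minus strand, 193 bases, and the ANXA1 stretch is chr9:73151615-73151756 on the plus strand, 142 bases.
ANXA2: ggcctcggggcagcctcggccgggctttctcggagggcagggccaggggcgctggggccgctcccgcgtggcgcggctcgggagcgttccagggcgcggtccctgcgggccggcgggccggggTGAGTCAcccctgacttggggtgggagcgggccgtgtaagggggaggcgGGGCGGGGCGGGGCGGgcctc
ANXA1: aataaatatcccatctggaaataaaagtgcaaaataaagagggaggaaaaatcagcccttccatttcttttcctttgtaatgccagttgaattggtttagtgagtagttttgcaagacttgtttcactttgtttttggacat
The ANXA2 stretch holds 24 CG pairs and the ANXA1 stretch 0. The windows of ANXA3 and ANXA9 lie inside annotated exons from their first base and are not shown.

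Genes that act with annexins were read in the same fit, as 4 lists of 44 genes. Of these, 43 were in the table and 38 were tested, and 0 rose and 0 fell by limma, beside the 0.126% of all tested genes called. Unadjusted p-values fell below 0.05 in 5 of the 38 (13.2%), beside 13.7% of all tested genes. The groups did not overlap in 5 of the 38 (13.2%), beside 19.7% of all tested genes. By edgeR 0 were called, beside 0.0771%, and by DESeq2 1, ATP11A, beside 1.77%. The lowest limma adjusted p was 0.145. The median log2 change was -0.049, with 13 above 0 and 25 below (65.8%, beside 52.6% of all tested genes). PKI C was the lowest library for 25 of the 38, and without it the median was -0.00063, with 19 below 0, beside a median of 0.014 over all tested genes.

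The EF-hand partners, 7 of 8 of them tested, were all below 0, with a median of -0.126, though none passed. PKI C was the lowest library for 4 of the 7, S100A11, S100A13, SRI and PEF1, and without it the median was -0.067, with all 7 still below 0. Without inPKI C the median was -0.104, with 6 of the 7 below 0 and S100A6 at 0.067. S100A13, an S100 protein, had 24.2, 25.7 and 22.6 CPM in PKI libraries, against 28.1, 26.7 and 27.0 CPM in inPKI libraries (log2 change -0.17, limma adjusted p = 0.288), and its groups did not overlap. Sorcin, SRI, which binds ANXA7, had a log2 change of -0.135 (limma adjusted p = 0.383), and S100A11, a partner of ANXA1, had -0.15 (limma adjusted p = 0.407), or -0.067 without PKI C. Their groups overlapped. S100A10, the partner of ANXA2, averaged 44.6 ± 2.55 CPM in PKI libraries and 46.9 ± 3.01 CPM in inPKI libraries (SD, n = 3 each; limma adjusted p = 0.643).

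Of the membrane repair genes, 17 of 18 were tested, 6 above 0 and 11 below, with a median of -0.035. PKI C was the lowest library for 14 of the 17, and without it the median was 0.010, with 8 below 0. CHMP4B, a filament subunit of the ESCRT-III machinery, had 67.5, 64.4 and 58.8 CPM in PKI libraries, against 74.9, 73.6 and 69.0 CPM in inPKI libraries (log2 change -0.19, limma adjusted p = 0.214), without overlap. AHNAK, a giant scaffold that binds S100A10 with ANXA2, had 60.6, 52.8 and 73.0 CPM in PKI libraries, against 48.6, 48.3 and 55.6 CPM in inPKI libraries (log2 change 0.28, limma adjusted p = 0.223), with overlap. AHNAK passed when PKI B was left out (log2 change 0.38), and its log2 change was 0.15 without PKI C. BIN1, a membrane-bending protein, had a log2 change of -0.15 (limma adjusted p = 0.343).

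All 10 genes of phosphatidylserine exposure and phospholipase A2 were tested, 6 above 0 and 4 below, with a median of 0.047. ATP11A, a flippase that returns phosphatidylserine to the inner leaflet, had 45.7, 40.8 and 46.0 CPM in PKI libraries, against 38.3, 34.5 and 38.0 CPM in inPKI libraries. The groups did not overlap, and its log2 change was 0.25 (limma adjusted p = 0.145). The flippase ATP8A1 had a log2 change of 0.16 (limma adjusted p = 0.459), or 0.052 without inPKI B, and its groups overlapped.

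Of the receptors and plasminogen genes, 4 were tested, with a median of -0.105. PLAU, the urokinase plasminogen activator, had 1.51, 1.13 and 1.40 CPM in PKI libraries, against 1.83, 1.31 and 2.81 CPM in inPKI libraries (log2 change -0.32, limma adjusted p = 0.441). It was highest in inPKI C, the library with high KRT5 and KRT14, and without that library its log2 change was -0.13. ANXA2R, an ANXA2 receptor gene, had a log2 change of -0.15 and PLAT, the tissue plasminogen activator, -0.064 (limma adjusted p = 0.745 and 0.753). ANXA2R was at 0.032 without PKI A, and PLAT at 0.036 without PKI C. The ANXA1 receptor gene FPR1 was at 0 in all 6 libraries.

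**Figure D5:**
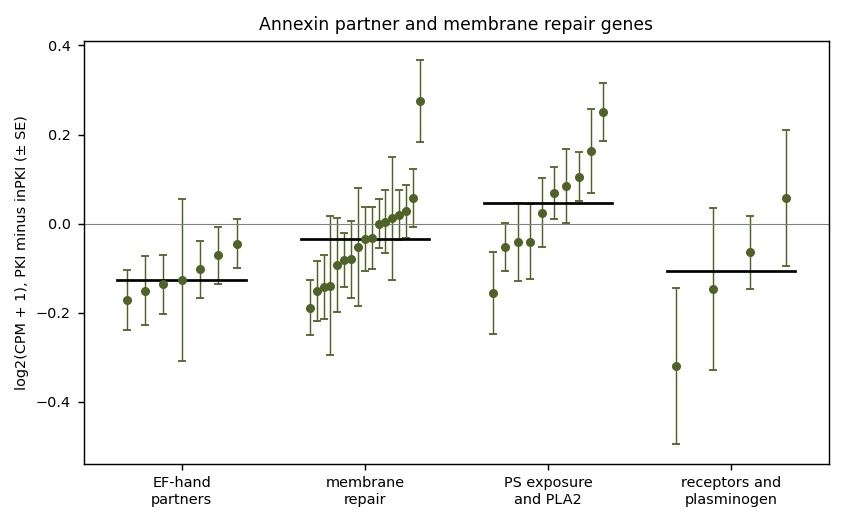
Difference of log2(CPM + 1), PKI minus inPKI, for the 38 tested genes of the 4 lists, with the SE as thin bars and each list's median as a thick line. The EF-hand partners all lie below 0, with a median of -0.126, and none of the 38 passed the test.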

How the data were processed

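Messenger RNA libraries from 3 PKI and 3 inPKI samples were sequenced, grouped by title. Per the submitters' processing notes, the tools were DESeq2 1.20.0, RSEM 1.3.0, STAR 2.5.2b and cutadapt 1.14, and the build was hg19. The authors deposited CPM, labelled as scaled by TMM, for 30960 genes. They also deposited a comparison table that, per the file headers, holds a mean signal, log2 fold change, signed fold, Wald score and p-value. The authors' log2 was printed with its sign turned, as it was opposite to their signed fold in all 30960 rows.

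Every deposited CPM (100%, within 0.01 reads) was a whole multiple of its column's smallest value, so whole reads were recovered. Genes were kept where 3 or more libraries reached 1 CPM, and these 14275 were fitted as log2(CPM + 1) with limma 3.58.1 in R 4.3.3 (trend, 2-sided, Benjamini-Hochberg, threshold 0.05), checked on simulated data; adjusted p-values are limma's. Alternatives were pseudocounts of 0.25 and 5, other filters and scalings, a replicate block, sample weights, removal of a length trend (lowess, span 0.3), edgeR 4.0.16 and DESeq2 1.42.0 on recovered reads, and leaving out each library. An exact permutation test of 3 against 3 libraries cannot go below 0.1.

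Members and lists were chosen with earlier results of these data known. From each partner list the 3 genes with the smallest p are named, except 1 that is not reported here, with S100A10, FPR1 and the neighbours of ANXA3 named after their values were seen; the 3 most alike genes are given for the 3 annexins with the highest mean CPM. Positions and lengths come from GENCODE 29 on GRCh38 by gene identifier (30795 matched, 165 did not), not from the authors' alignment.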

Additional observations from a re-analysis of the deposited data

How the results depend on the processing

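Most settings tested the same 14275 genes, but no filter on low values tested more, and the removal of a length trend took only genes of known length. The number of genes called moved with the method, which bears on the background share. Against 18 (14 higher and 4 lower in PKI), it was 4 with no filter on low values and 4 with limma without a trend, 9 with a length trend removed, 11 with median-ratio rescaling, 11 with equal-sum rescaling and 11 with edgeR, 144 with sample weights and 253 with DESeq2. The split was 10 higher and 1 lower with either rescaling, and 119 higher and 134 lower with DESeq2. Leaving out 1 library gave 9 (inPKI B) to 114 (PKI B). The labels do not say whether libraries of the same letter share a day or culture, and the main fit has no block for the letter. Deviations of same-letter libraries correlated at 0.0171, 0.0138 and 0.0283, each the best match of its letter. The replicate block gave 124 calls over all genes. Whether the libraries are paired by letter was not tested. Among the 38 partner genes, 0 were called, 1 with the replicate block (AHNAK), 1 with DESeq2 (ATP11A) and 0 to 1 when leaving out a library. The cause of these moves was not tested.

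The median of the annexins stayed below 0 in all 18 alternatives, from -0.1122 without PKI B to -0.0097 without PKI C. It was -0.021 with a length trend removed and -0.029 with sample weights. The annexins were chosen with this contrast known and the alternatives reuse the same 6 libraries, so their shared direction adds no support. No annexin was called in any alternative, though DESeq2 gave no adjusted p for 3. Over all genes these alternatives called 4 to 253, so few that nothing is read from the annexin count. ANXA3, left out by the filter of 5 CPM, had 0.79 with a pseudocount of 0.25 and 0.22 with 5. ANXA4 was above 0 in 4 alternatives, and ANXA2, ANXA6 and ANXA11 without PKI C. Depth limits ANXA3 and ANXA9 most.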

Other observations

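The authors' deposited table gives a mean normalised signal per gene (baseMean) that can be set beside the mean recovered reads of the 6 libraries. The median ratio of baseMean to mean reads over the tested genes was 0.716. For ANXA1 the table gives 22200 beside 171.2 mean reads, a ratio of 130, for ANXA2 a ratio of 32.8 and for ANXA3 a ratio of 104. ANXA8 reached a ratio of 754, and the keratins KRT5 and KRT14 reached 879 and 890. The ratio was 0.722 for ANXA5, 0.345 for ANXA6, 1.23 for ANXA7 and 1.36 for ANXA11. In 2069 genes that are at 0 in all 6 libraries the baseMean of the authors' deposited table is above 0. The cause was not tested.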
